A study of Mus musculus with 28 samples.

Results

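The genes described here encode the proteins of the mitochondrial ribosome. They were the rows of the count table whose symbol was Mrpl or Mrps followed by a number and, in some, a letter a, b or c, with a mean level of at least 1 CPM (counts scaled to a common library size) over the 28 libraries. The rule used no comparison between groups. It found 77 genes among the 48587 genes of the table, 48 of the large subunit (Mrpl) and 29 of the small subunit (Mrps), and all 77 symbols that matched also passed the level. All 77 were among the 15298 genes with enough counts to be tested. By current nomenclature the products of Mrps18a and Mrps30 sit in the large subunit, and the product of Mrps36 is now known as a subunit of the alpha-ketoglutarate dehydrogenase complex, but the genes were kept where their symbols put them.

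RNA was sequenced from microglia, the resident macrophages of the brain, sorted from the hippocampus of 16-week-old male mice on the C57BL/6J background. The 5xFAD mice carried mutant human APP and PS1 transgenes under the neuronal Thy-1 promoter, so that the cells sequenced here were not the cells that the promoter targets, and non-transgenic littermates served as wild type (WT). The mice were specific pathogen free (SPF; 5 WT and 3 5xFAD), germ-free (GF; 4 WT and 5 5xFAD) or SPF mice given vancomycin, cefoxitin, gentamicin and metronidazol in the drinking water for 8 weeks (ABX; 5 WT and 6 5xFAD). GF mice came from another facility than the others, and between GF mice and mice of the other housings the facility and the germ status cannot be told apart. Each library was 1 mouse. The sort took viable CD11b+ CD45low cells and left out cells with Ly6C or Ly6G on the surface, a gate that is meant to remove neutrophils, monocytes and CD45-high macrophages.

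Mitochondria keep a small genome of their own, whose protein-coding genes specify core subunits of the respiratory chain and of ATP synthase. Those few messages are translated by a dedicated ribosome in the mitochondrial matrix. Its RNAs come from the mitochondrial genome, whereas every one of its proteins is encoded in the nucleus, made in the cytosol and imported. The small subunit reads the message, and the large subunit joins the amino acids. Compared with the bacterial ribosome from which it descends, the mitochondrial ribosome has less RNA and more protein, so that part of its proteins have a bacterial counterpart and part do not. Microglia that react to amyloid are known to change their energy metabolism.

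The libraries held 14441610 to 29977395 counts in genes. The summed level of 8 microglial markers was 57658 to 65552 CPM in WT and 45997 to 56396 CPM in 5xFAD mice, whereas neuronal and astrocyte markers summed to at most 17.3 and 16.5 CPM and oligodendrocyte markers to at most 102 CPM. Markers of neutrophils (7 genes, S100a8 and Ngp among them) summed to 61.1, 190 and 263 CPM in the 3 SPF 5xFAD mice and to 144 CPM in mouse FAD_ABX_1151, against at most 0.774 CPM in any other 5xFAD mouse. Border-associated macrophage markers (7 genes) summed to 34.0 to 253 CPM in ABX 5xFAD mice and to 3.48 to 81.0 CPM elsewhere. The description numbers of the 3 SPF 5xFAD libraries and of mouse FAD_ABX_1151 share a format that no other library has. All GF libraries and the other 5 ABX 5xFAD libraries share another, and all SPF WT and ABX WT libraries another again, and what the formats stand for is not given in the labels. For mouse FAD_GF_201 the description names a WT mouse while the title and the genotype field give 5xFAD. That mouse was kept as 5xFAD. Mice are named by their labels, in which FAD stands for 5xFAD.

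The promoters of these genes are shown first, since many of the genes moved together and the factors known to bind such promoters were measured as well. RefSeq promoter windows (250 bases before to 50 after the start, GRCm38.p6) were found by symbol for 68 of the 77 genes. The binding motif of NRF1, the nuclear respiratory factor known for its role at genes of mitochondrial function, was searched as GCGCANGCG, the motif of the ETS family (to which GABPA belongs) as CCGGAAGT and that of YY1 as ANATGGCG, each on both strands. NRF1 letters were found in 16 of 68 genes (23.5%, against 7.03% of all 27025 genes with a window), ETS letters in 12 (17.6% against 4.31%) and YY1 letters in 10 (14.7% against 4.23%). At least 1 of the 3 was found in 35 of the 68 genes (51.5%), in 24 of 42 of the large and 11 of 26 of the small subunit, against 13.9% of all genes. The windows of these genes were also richer in G and C than the rest, with a median of 58.5% against 52.7%. The 4 windows shown belong to genes that were called in the comparisons and carry 1 match each, in capitals.
Mrpl12 (chr11:120484387-120484686, plus strand): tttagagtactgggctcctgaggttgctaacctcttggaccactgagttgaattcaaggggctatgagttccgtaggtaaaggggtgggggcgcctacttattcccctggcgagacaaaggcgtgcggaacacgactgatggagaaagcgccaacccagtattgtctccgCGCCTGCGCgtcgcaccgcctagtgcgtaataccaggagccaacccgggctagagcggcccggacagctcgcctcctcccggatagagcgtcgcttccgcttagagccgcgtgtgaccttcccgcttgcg
Mrps21 (chr3:95871465-95871764, minus strand): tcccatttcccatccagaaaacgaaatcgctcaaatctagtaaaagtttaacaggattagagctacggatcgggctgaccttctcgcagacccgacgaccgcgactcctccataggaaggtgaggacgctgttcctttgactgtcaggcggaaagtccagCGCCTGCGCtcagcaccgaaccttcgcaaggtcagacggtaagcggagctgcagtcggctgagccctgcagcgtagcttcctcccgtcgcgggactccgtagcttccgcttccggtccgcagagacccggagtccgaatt
Mrpl52 (chr14:54426659-54426958, plus strand): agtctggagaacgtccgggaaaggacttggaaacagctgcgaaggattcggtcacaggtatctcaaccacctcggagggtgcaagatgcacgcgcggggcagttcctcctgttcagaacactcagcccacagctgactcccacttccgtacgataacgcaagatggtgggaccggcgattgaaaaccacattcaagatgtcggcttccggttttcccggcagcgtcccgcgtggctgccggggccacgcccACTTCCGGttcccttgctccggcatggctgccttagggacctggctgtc
Mrps24 (chr11:5707652-5707951, minus strand): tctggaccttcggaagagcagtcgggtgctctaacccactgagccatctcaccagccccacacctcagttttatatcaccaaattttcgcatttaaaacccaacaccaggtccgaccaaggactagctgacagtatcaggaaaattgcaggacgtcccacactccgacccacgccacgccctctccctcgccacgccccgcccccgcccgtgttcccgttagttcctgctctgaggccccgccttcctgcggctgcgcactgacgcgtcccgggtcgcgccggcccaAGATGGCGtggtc
The windows of Mrpl12 and Mrps21 hold NRF1 letters, read on the opposite strand, that of Mrpl52 holds ETS letters, also on the opposite strand, just after its start and that of Mrps24 holds YY1 letters further into the transcript. A match is a stretch of letters and not a site shown to be bound.

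Levels between genes were compared per kilobase of exon, as the mean CPM per kilobase over the 28 mice. The 77 genes spanned 1.06 to 51.9 CPM per kilobase, with a median of 16.2 for the large and 10.3 for the small subunit. The highest in the large subunit were Mrpl43 (51.9), Mrpl42 (47.4) and Mrpl4 (39.5 CPM per kilobase), and in the small subunit Mrps15 (41.2), Mrps16 (28.3) and Mrps21 (27.7). The lowest were Mrps36 (1.06 CPM per kilobase), which is no ribosomal protein by current knowledge, Mrpl53 (1.48) and Mrpl23 (1.89). These 3 genes also had the widest spread between mice of a group, with a within-group SD of log2 CPM of 0.42, 0.51 and 0.43, and with a mean of 1.35 CPM for Mrps36 and 1.17 CPM for Mrpl53 they rested on as few as 11 and 6 counts in a library. Of Mrpl53, 88.0% of the exon bases are shared with other genes of the annotation, and the library kit does not mark strand. Such sharing touched 29 of the 77 genes, and it exceeded 20% of the exon bases in 10 and 50% in 3, the other 2 being Mrps34 (77.8%, with Mapk8ip3 and Nme3) and Mrps25 (69.8%, with Nr2c2). The 3 paralogs of bacterial S18 stood at 19.3 (Mrps18c), 11.4 (Mrps18a) and 6.63 (Mrps18b) CPM per kilobase. Entries whose symbol marks them as pseudogenes of these genes (-ps) were low, the highest being Mrpl23-ps1 with a mean of 0.649 CPM. Copies under other names were not looked at.

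**Figure D1:**
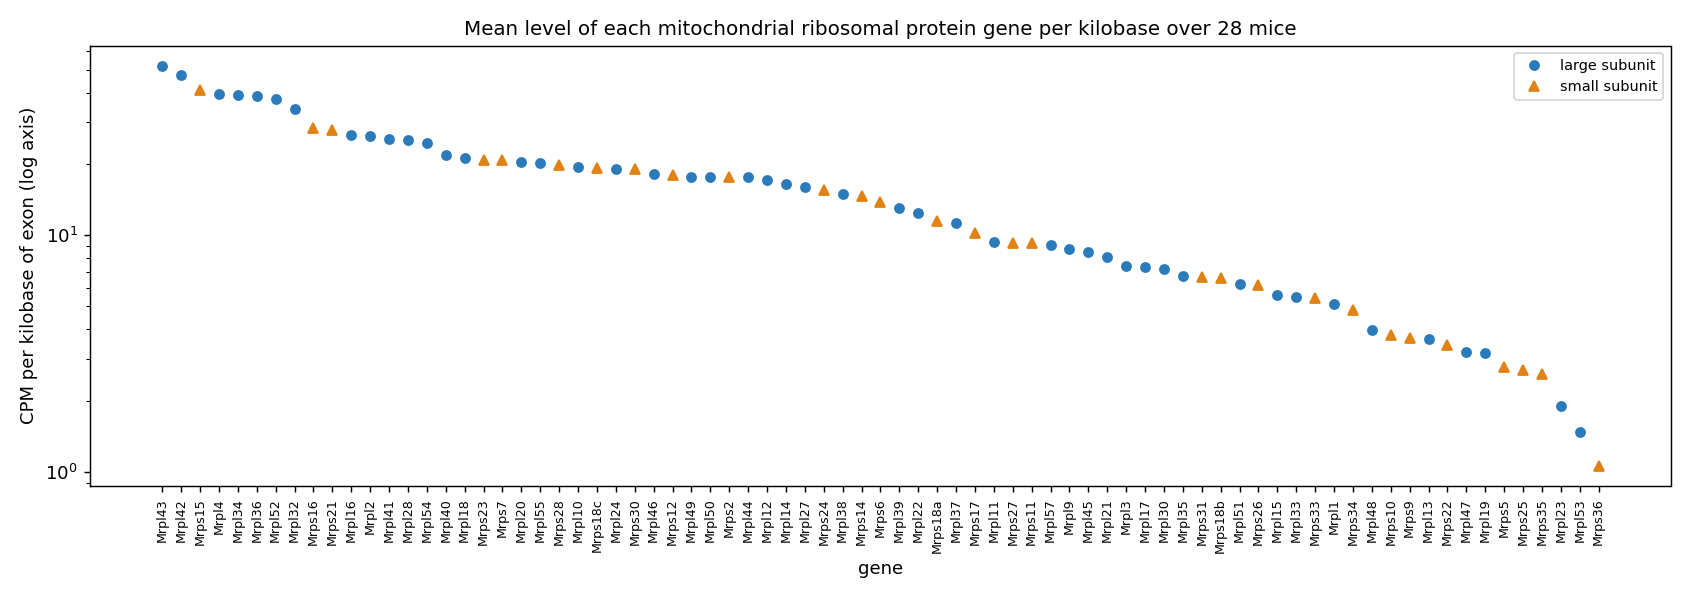
Mean level of each of the 77 genes over the 28 mice in CPM per kilobase of exon, on a log axis, ordered from high to low. Circles are large and triangles small subunit genes; the levels run from 51.9 (Mrpl43) to 1.06 (Mrps36), with the 2 subunits intermingled.

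GF 5xFAD microglia held the highest messenger levels of mitochondrial ribosomal proteins among the 6 groups, in both subunits. The mean log2 CPM over the 48 large subunit genes was 4.94 ± 0.04 (SD, n = 5) in GF 5xFAD mice, against 4.52 ± 0.13 (n = 3) in SPF 5xFAD, 4.64 ± 0.20 (n = 6) in ABX 5xFAD, 4.72 ± 0.11 (n = 4) in GF WT, 4.57 ± 0.07 (n = 5) in SPF WT and 4.64 ± 0.02 (n = 5) in ABX WT mice. All 5 GF 5xFAD mice (4.87 to 4.98) lay above each of the other 23 mice, the nearest being mice FAD_ABX_1482 (4.86) and FAD_ABX_1455 (4.85). That separation depended on the scaling. With library totals in place of TMM the GF 5xFAD mice were at 4.80 to 4.88, and mice FAD_ABX_1482 (4.84), FAD_ABX_1455 (4.83) and WT_GF_229 (4.81) lay among them. With offsets for GC content mouse FAD_GF_201 (4.87) was below mouse FAD_ABX_1482 (4.90). The group mean of GF 5xFAD was the highest in both subunits under each of these scalings. Over the 29 small subunit genes the order began the same way, with 4.62 ± 0.06 in GF 5xFAD, 4.41 ± 0.09 in GF WT, 4.38 ± 0.07 in ABX WT, 4.33 ± 0.19 in ABX 5xFAD, 4.32 ± 0.11 in SPF WT and 4.21 ± 0.09 in SPF 5xFAD mice. There the GF 5xFAD mice ranged from 4.55 to 4.70, and mouse FAD_ABX_1482, at 4.56, lay among them. The 5 groups below GF 5xFAD overlapped one another. ABX 5xFAD mice were the most spread, from 4.33 (mouse FAD_ABX_1151) to 4.86 in the large subunit, a range that held most of the other mice.

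**Figure D2:**
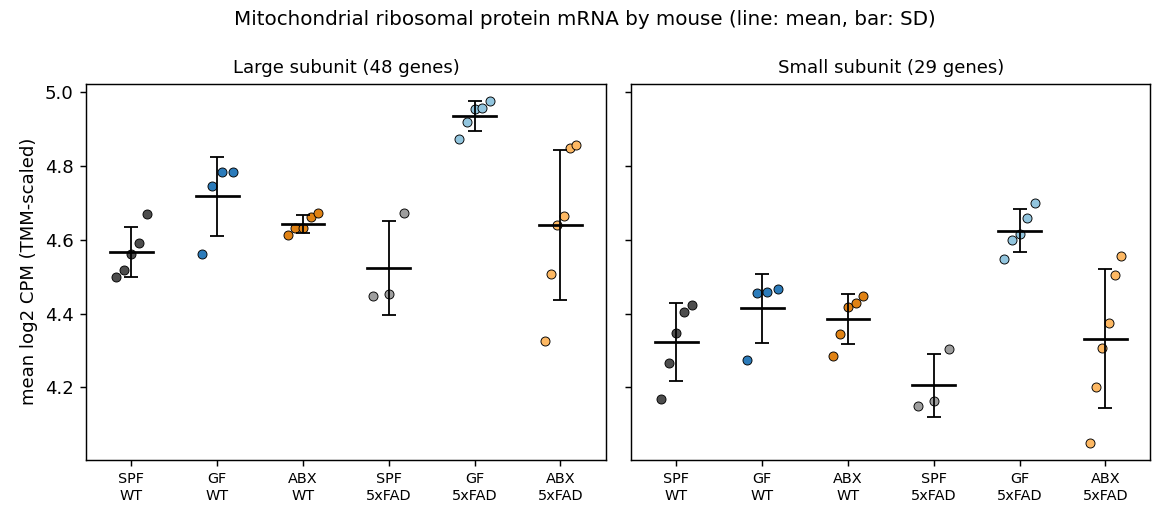
Mean log2 CPM over the 48 large (left) and 29 small (right) subunit genes in each mouse, by group, with the group mean (line) and SD (bar). The 5 GF 5xFAD mice lie between 4.87 and 4.98 in the left panel, above all other mice under TMM scaling but not with library totals or GC offsets, and the 6 ABX 5xFAD mice spread from 4.33 to 4.86.

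Counted by gene, the group with the highest mean was GF 5xFAD for 53 of the 77 (68.8%; 34 of 48 large and 19 of 29 small), whereas the same group was highest for 24.6% of all 15298 genes tested. The lowest group was SPF 5xFAD for 33 of the 77 (42.9%, against 15.9% of all genes). In bulk RNA from sorted cells, a change in the mix of cell states and a change in RNA per cell cannot be told apart.

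Of the 9 comparisons between groups, that of germ-free with conventional 5xFAD mice had the most calls. In GF 5xFAD against SPF 5xFAD microglia, 28 of the 77 genes rose and none fell (adjusted p under 0.05, edgeR's quasi-likelihood test, adjusted over all genes), 19 of 48 in the large and 9 of 29 in the small subunit. Over all genes tested 6.97% were called higher in this comparison. The median log2 fold change was 0.43 over the 77 genes and 0.02 over all genes, and 74 of the 77 were positive. In 41 genes, 26 large and 15 small, each of the 5 GF 5xFAD mice was above each of the 3 SPF 5xFAD mice, a separation that 10.4% of all genes tested showed. The 3 genes with a negative value were Mrpl23, Mrps5 and Mrpl44, at -0.28, -0.09 and -0.04, none of which passed the test.

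The rise was led by Mrpl12, the protein of the stalk that recruits translation factors and one also known to bind the mitochondrial RNA polymerase. Mrpl12 stood at 42.7, 42.3, 41.7, 34.7 and 33.0 CPM in GF 5xFAD mice and at 18.0, 19.8 and 20.3 CPM in SPF 5xFAD mice. The lowest GF 5xFAD mouse was thus well above the highest SPF 5xFAD mouse, and the log2 fold change was 1.00 ± 0.18 (SE; adjusted p = 0.00155). Mrpl28 stood at 47.4, 48.3, 51.6, 49.5 and 43.8 CPM against 28.4, 23.7 and 26.8 CPM, again with no overlap (0.87 ± 0.18, adjusted p = 0.00315). Mrpl34, a small protein of the large subunit, stood at 36.7, 33.4, 36.6, 37.4 and 29.2 CPM against 22.6, 17.2 and 18.7 CPM (0.83 ± 0.18, adjusted p = 0.00364). The groups did not overlap for Mrpl34 either. Mrpl14, which lies at the interface of the subunits, was at 0.86 ± 0.21 (adjusted p = 0.00752), and Mrpl54, which has no bacterial counterpart, at 0.73 ± 0.19 (adjusted p = 0.0139). The other 14 large subunit genes called ranged from 0.45 (Mrpl51) to 0.70 (Mrpl46).

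In the small subunit Mrps34, which has no bacterial counterpart and is needed for the stability of the subunit, stood at 9.78, 13.2, 13.6, 15.2 and 13.8 CPM in GF 5xFAD mice and at 6.79, 7.78 and 5.92 CPM in SPF 5xFAD mice (0.94 ± 0.22, adjusted p = 0.00635). The groups did not overlap, but most exon bases of Mrps34 are shared with neighbouring genes. Mrps21 stood at 38.7, 26.0, 26.8, 45.5 and 26.2 CPM against 19.6, 17.3 and 17.7 CPM (0.84 ± 0.21, adjusted p = 0.00962), with 2 GF 5xFAD mice far above the other 3. Mrps24 stood at 31.0, 27.5, 35.3, 35.4 and 27.8 CPM against 20.97, 19.8 and 19.4 CPM (0.65 ± 0.18, adjusted p = 0.0171), so that the 2 groups were apart. Mrps12, the counterpart of the bacterial decoding-site protein in which streptomycin resistance arises, was at 0.65 ± 0.19 (adjusted p = 0.0211) and Mrps28 at 0.62 ± 0.20 (adjusted p = 0.0401). Of the S18 paralogs Mrps18a passed (0.45 ± 0.14, adjusted p = 0.0313), whereas Mrps18b (0.39, adjusted p = 0.0963) and Mrps18c (0.39, adjusted p = 0.211) had much the same value without passing. With the subunits taken by current nomenclature, 12 of 30 large subunit genes with a bacterial counterpart and 8 of 20 without one were called, and 5 of 16 and 3 of 10 in the small subunit.

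**Figure D3:**
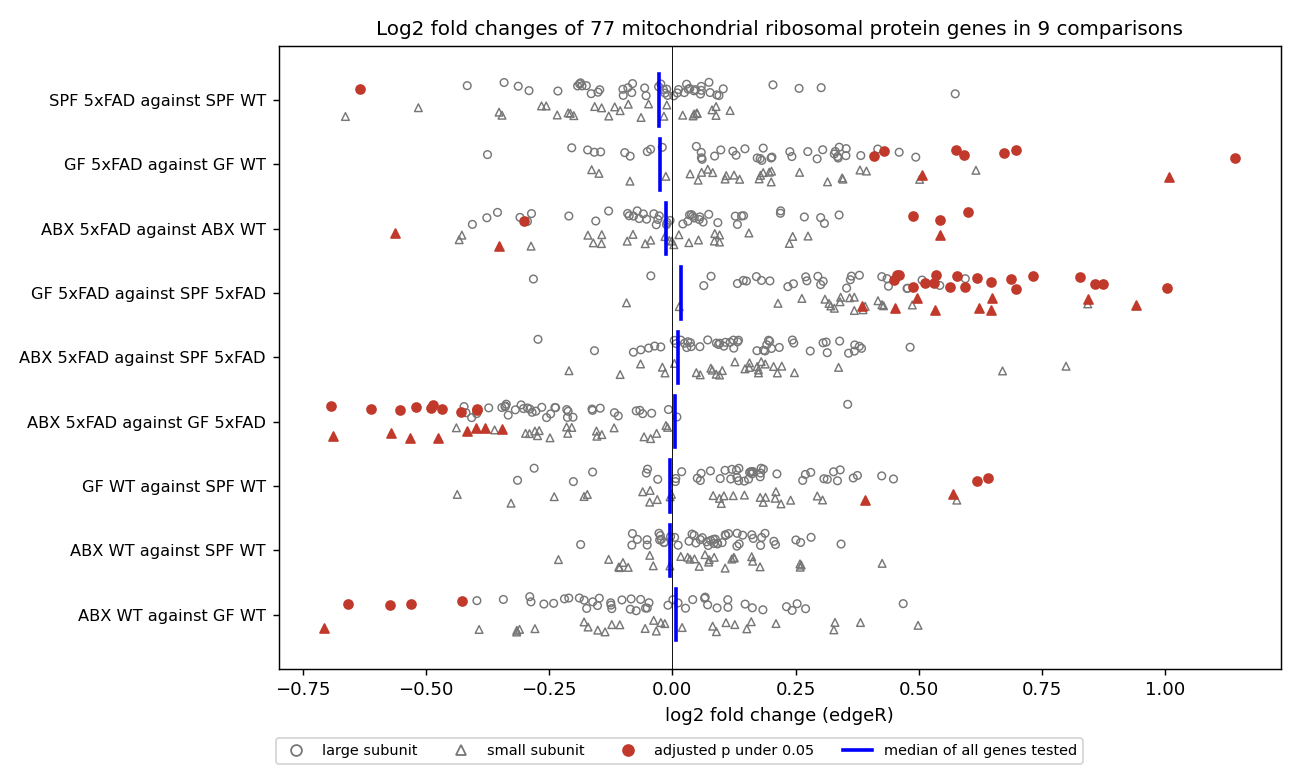
Log2 fold change (edgeR) of each of the 77 genes in 9 comparisons, large subunit as circles and small subunit as triangles; filled symbols passed an adjusted p of 0.05 and the blue bar is the median of all genes tested. In GF 5xFAD against SPF 5xFAD, 74 of the 77 lie above 0 and 28 are filled, and in ABX 5xFAD against GF 5xFAD 75 lie below 0.

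For a single gene the exact two-sided permutation test on log2 CPM can reach no lower than p = 0.0179 with 5 against 3 mice, and Mrpl12, Mrpl54 and Mrps21 reached that (adjusted over all genes, 0.141). The count of 28 rested on the 3 SPF 5xFAD mice: leaving out FAD_SPF_1146 or FAD_SPF_1148 brought it to 5 in either case, while the medians over the 77 genes were 0.36 and 0.37 in those fits and all 28 genes kept their sign. limma's voomWithQualityWeights, the method of the study, called 52 and scaling by library size alone 15. Without mouse FAD_GF_201, 28 were called, of which 27 were among the first 28. Among the library properties that moved with these groups were the neutrophil markers given above and the TMM scaling factors, at 0.918 to 0.954 and 0.979 to 1.01. The fold change also had a trend with exon length and GC content. The 77 genes have short transcripts, with a median of 2011 exon bases against 3516 over all genes tested, and across genes the fold change fell with length (Spearman's rho -0.23) and rose with GC content (0.31). With offsets that remove the length trend from each library 23 genes were called, 19 of them among the 28, and with offsets for length and then GC content 22, of which 13 were among the 28, with a median of 0.33. Mrpl12, Mrpl28, Mrpl34, Mrps21 and Mrps34 were among these 13, whereas Mrpl54 (adjusted p = 0.143) and Mrpl14 (0.0853) were not. After the length offsets the large subunit mean was 4.87 to 4.91 in GF 5xFAD mice and at most 4.81 in any other mouse, and after both offsets 4.86 to 4.89 and at most 4.80, whereas with GC offsets alone (4.87 to 4.99, against up to 4.90) the GF 5xFAD mice overlapped an ABX 5xFAD mouse. The sort was gated against Ly6G and Ly6C to leave neutrophils out, yet their markers were present in all 3 SPF 5xFAD libraries. The part of the neutrophil signal in the difference was not tested. The endothelial list (4 genes) summed to 8.12 to 21.4 CPM in GF 5xFAD and 23.2 to 29.2 CPM in SPF 5xFAD mice, but nearly all of it was Pecam1 (mean 26.9 CPM over all mice), which myeloid cells also express, while Flt1 had a mean of 1.33 CPM, Cldn5 reached at most 0.0808 CPM and Ly6c1 was at 0 in every library. The sort took CD11b+ cells, and the part of this list in the difference was not tested. Since all GF libraries differ from the 3 SPF 5xFAD libraries in the format of their numbers, whatever the format stands for cannot be told apart from the groups.

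Within germ-free mice the 5xFAD genotype went with higher levels of fewer genes. In GF 5xFAD against GF WT microglia 9 genes rose and none fell, 7 of the large and 2 of the small subunit, which at 9 of 77 is close to the 9.43% of all genes that were called higher. The median log2 fold change was 0.18 (all genes -0.03), and 63 of the 77 were positive. The groups did not overlap for 16 genes (10 large and 6 small), against 9.26% of all genes. These 2 groups came from the same facility, and their libraries share a numbering format. Other library properties kept them apart without overlap. Microglial markers summed to 45997 to 56396 CPM in GF 5xFAD and 59516 to 62406 CPM in GF WT mice, the endothelial list (nearly all Pecam1) to 8.12 to 21.4 and 27.4 to 35.3 CPM, and the TMM scaling factors were 0.918 to 0.954 and 1.01 to 1.02. Their part in the differences was not tested.

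Mrpl54 rose most. It stood at 41.1, 34.5, 34.9, 36.7 and 25.8 CPM in GF 5xFAD mice and at 13.2, 18.0, 16.0 and 15.5 CPM in GF WT mice (log2 fold change 1.14 ± 0.18, adjusted p = 3.03e-05). The lowest GF 5xFAD mouse, mouse FAD_GF_201, was still above the highest GF WT mouse, and the exact two-sided permutation test gave p = 0.00794, the smallest possible with 5 against 4 mice (adjusted over all genes, 0.0877). Mrps21 stood at 12.8, 18.4, 17.8 and 16.0 CPM in GF WT mice, all below the 26.0 CPM of the lowest GF 5xFAD mouse (1.01 ± 0.19, adjusted p = 0.000375). Mrpl13, Mrpl52 and Mrpl30 followed with 0.70 ± 0.16, 0.67 ± 0.16 and 0.59 ± 0.16 (adjusted p = 0.00209, 0.00451 and 0.00871). Mrpl27, whose bacterial counterpart reaches into the peptidyl transferase centre, was at 0.57 ± 0.18 (adjusted p = 0.027) and Mrps24 at 0.51 ± 0.16 (adjusted p = 0.0302). The calls of Mrps24 and Mrpl27 were lost in 8 and 7 of 39 alternatives. Mrpl12 (0.35, adjusted p = 0.142) and Mrps34 did not pass. Mrps34 stood at 10.2, 12.2, 11.5 and 14.9 CPM in GF WT, which overlapped GF 5xFAD. With both offsets 7 genes were called, of which 6 were among the 9, and without mouse WT_GF_199, whose subunit means were the lowest of the GF WT mice, 5. Scaling by library size alone moved the median of all genes to -0.15 and that of the 77 genes to 0.06, a distance of the same size as before.

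**Figure D4:**
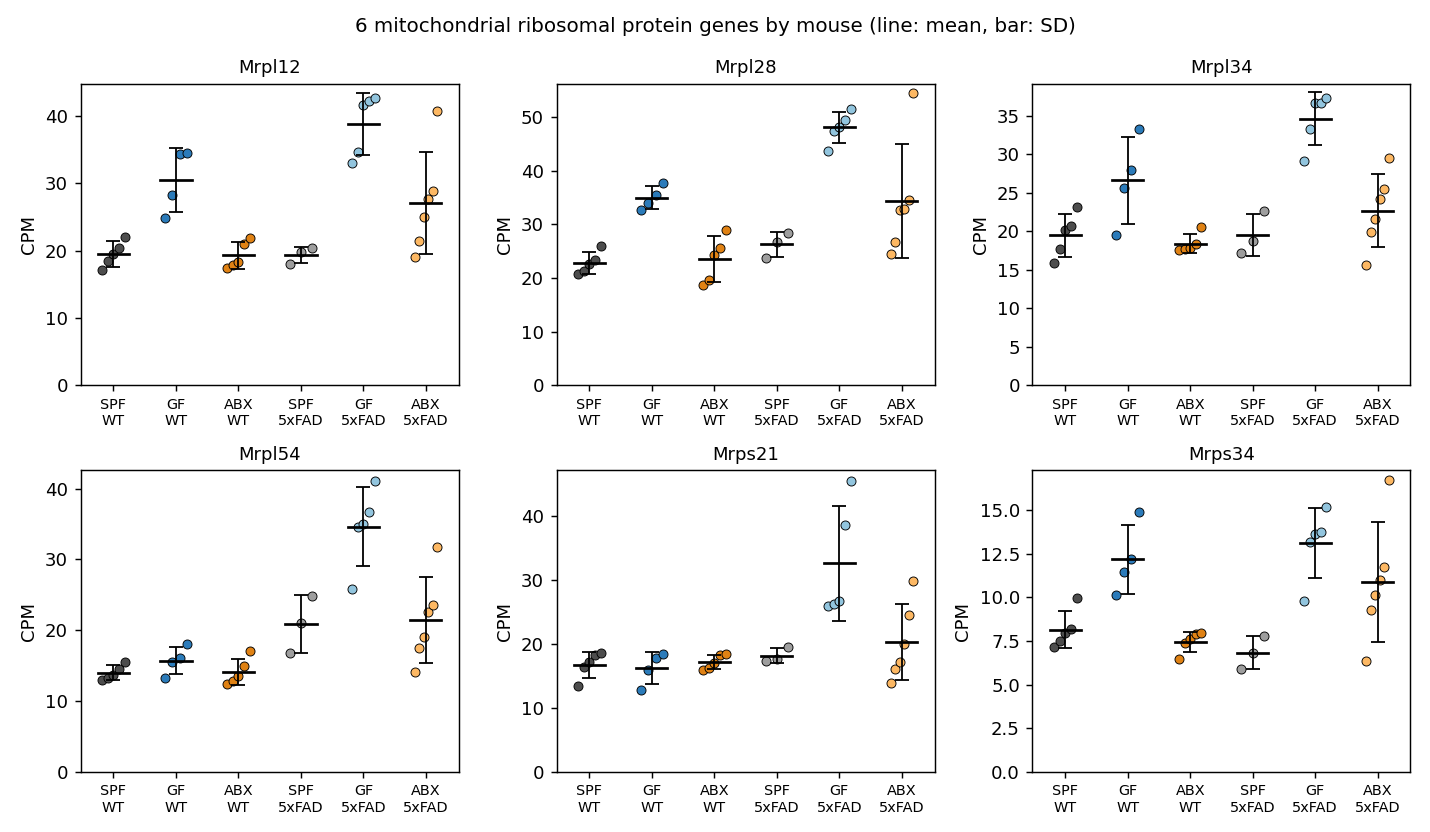
CPM of Mrpl12, Mrpl28, Mrpl34, Mrpl54, Mrps21 and Mrps34 in each mouse by group, with mean (line) and SD (bar) and axes from 0. For Mrpl54 and Mrps21 the 4 GF WT mice lie at 12.8 to 18.4 CPM, below all 5 GF 5xFAD mice, whereas for Mrps34 they lie at 10.2 to 14.9 CPM, among them.

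Antibiotic treatment and germ-free rearing, both of which deplete bacteria, went with different levels in 5xFAD mice. In ABX 5xFAD against GF 5xFAD microglia 18 of the 77 genes fell and none rose, 10 large and 8 small, where 6.07% of all genes were called lower. The median log2 fold change was -0.28 (all genes 0.01) and 75 of the 77 were negative. The groups did not overlap for 5 genes, Mrpl18, Mrpl38, Mrps15, Mrps25 and Mrps30, against 1.79% of all genes (chosen for naming after their values were seen).

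Mrps15, the small subunit message with the highest level per kilobase, ranged in the 6 ABX 5xFAD mice from 59.0 to 69.0 CPM with a median of 64.7, below the 84.4, 79.6, 76.2, 98.9 and 85.1 CPM of the GF 5xFAD mice (-0.40 ± 0.09, adjusted p = 0.00609). Mrpl54 ranged from 14.1 to 31.8 CPM with a median of 20.8 (-0.69 ± 0.16, adjusted p = 0.00624), and Mrps21 from 13.9 to 29.8 CPM with a median of 18.6 (-0.69 ± 0.17, adjusted p = 0.00986). For both, the highest ABX 5xFAD mouse was mouse FAD_ABX_1482, which lay within the range of GF 5xFAD. Mrpl34 was at -0.61 ± 0.14 (adjusted p = 0.00711) and Mrpl12 at -0.52 ± 0.14 (adjusted p = 0.0187), with 5 of 6 ABX 5xFAD mice below all GF 5xFAD mice for both. Mrps12, Mrps25, Mrps24 and Mrps23 fell by 0.57, 0.53, 0.48 and 0.42 on the log2 scale (adjusted p = 0.0152, 0.022, 0.0322 and 0.0321). The count varied with the mice: it was 8 without mouse FAD_ABX_1151, 10 without mouse FAD_ABX_1452 and 29 without mouse FAD_ABX_1482, 9 and 10 without mice FAD_GF_184 and FAD_GF_185, and 0 when the 2 groups were fitted alone, where the spread comes from these 11 mice only. The median was -0.22 without mouse FAD_ABX_1151, which leaves libraries of 1 numbering format, and all 18 kept their sign in each of these fits. Border-associated macrophage markers were at 34.0 to 253 CPM in ABX 5xFAD and at 10.0 to 81.0 CPM in GF 5xFAD mice, from a sort of CD45low cells that is meant to leave such macrophages out, and their part in the difference was not tested.

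In ABX 5xFAD against SPF 5xFAD microglia none of the 77 genes passed, as none of all genes did (0%; edgeR). The median log2 fold change was 0.13, 65 of the 77 were positive and 7 had an unadjusted p under 0.05, and DESeq2 called 0 as well. In this pair the SPF 5xFAD mice overlapped the ABX 5xFAD mice in both subunit means.

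In mice with a conventional flora few of these genes passed with the genotype. In SPF 5xFAD against SPF WT microglia 1 gene, Mrpl1, fell and none rose, and 0.837% of all genes were called lower. Mrpl1, whose bacterial counterpart forms a mobile stalk at the tRNA exit side, stood at 18.1, 15.8 and 13.0 CPM in SPF 5xFAD mice and at 28.3, 21.6, 21.3, 23.7 and 26.5 CPM in SPF WT mice (-0.63 ± 0.17, adjusted p = 0.0287). The groups did not overlap. The call was lost without mouse WT_SPF_912 or WT_SPF_936 or without mouse FAD_SPF_1146 or FAD_SPF_1148 (0 called each). The median over the 77 genes was -0.05, against -0.03 over all genes. Mrpl54, which rose with the genotype in germ-free mice, stood at 24.9, 20.97 and 16.7 CPM in SPF 5xFAD and at 13.0 to 15.5 CPM in SPF WT mice, with no overlap but without passing the test (adjusted p = 0.0865). Neutrophil markers were at 61.1 to 263 CPM in SPF 5xFAD and at most 0.294 CPM in SPF WT mice. Other library properties were also apart without overlap. Microglial markers summed to 49072 to 52253 CPM in SPF 5xFAD and 59043 to 63982 CPM in SPF WT mice. In the same order, border-associated macrophage markers summed to 16.1 to 29.2 and 3.48 to 8.15 CPM. The endothelial list summed to 23.2 to 29.2 and 30.6 to 43.1 CPM. TMM scaling factors were 0.979 to 1.007 and 1.013 to 1.057. The part of these properties in the differences was not tested. Here too the genotype goes with the format of the description numbers, so that they cannot be told apart, and the same holds for the interaction of GF with SPF.

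In ABX 5xFAD against ABX WT microglia 4 genes rose, namely Mrpl54 (0.60 ± 0.16), Mrpl28 (0.54 ± 0.15), Mrps34 (0.54 ± 0.18) and Mrpl12 (0.49 ± 0.15), with adjusted p = 0.0107, 0.0115, 0.0392 and 0.0218. Another 3 fell, namely Mrps6 (-0.56 ± 0.15), Mrps30 (-0.35 ± 0.11) and Mrpl24 (-0.30 ± 0.10), with adjusted p = 0.0105, 0.0258 and 0.0499. The call of Mrpl24 was lost in 28 of 39 alternatives (adjusted p up to 0.179) and that of Mrps30 in 10, with -0.12 under GC offsets. Among the genes that rose, the call of Mrps34 was lost in 14 (adjusted p up to 0.183), that of Mrpl12 in 9 (up to 0.111), that of Mrpl28 in 4 and that of Mrpl54 in 2, as was that of Mrps6. Over all genes 9.45% were called higher and 4.98% lower, beside 4 and 3 of the 77 genes. Their median was 0.00. Mrpl28 ranged in ABX 5xFAD mice from 24.5 to 54.5 CPM with a median of 32.8, and in ABX WT mice it stood at 25.6, 24.3, 18.7, 19.7 and 29.03 CPM. The highest value, 54.5 CPM, was that of mouse FAD_ABX_1482. When the 2 groups were fitted alone none of the 77 genes was called, and 4, 2 and 3 were called without mice WT_ABX_910 and WT_ABX_911 and mouse FAD_ABX_1482. Border-associated macrophage markers were at 34.0 to 253 CPM in ABX 5xFAD and 3.80 to 5.90 CPM in ABX WT mice, and microglial markers at 49271 to 56313 and 57658 to 65552 CPM, and their part in these differences was not tested. No ABX 5xFAD library shares the format of description numbers of the ABX WT libraries. Genotype and format thus cannot be told apart here either.

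In WT mice 4 genes rose with germ-free housing. In GF WT against SPF WT microglia these were Mrpl12 (0.64 ± 0.16), Mrpl28 (0.62 ± 0.16), Mrps11 (0.57 ± 0.14) and Mrps15 (0.39 ± 0.10), with adjusted p between 0.0358 and 0.0434, where 0.869% of all genes were called higher. The median over the 77 genes was 0.15. Mrpl12 stood at 24.9, 34.3, 28.2 and 34.5 CPM in GF WT and at 18.5, 19.5, 22.1, 20.4 and 17.1 CPM in SPF WT mice, with no overlap. In ABX WT against GF WT microglia 5 fell, Mrps34 (-0.71 ± 0.20), Mrpl12 (-0.66 ± 0.16), Mrpl28 (-0.57 ± 0.16), Mrpl34 (-0.53 ± 0.16) and Mrpl38 (-0.43 ± 0.12), with adjusted p between 0.0126 and 0.0398 (4.48% of all genes lower). GF WT libraries differ from the SPF WT and ABX WT libraries in the format of their description numbers. Housing and format thus cannot be told apart here. These 2 comparisons share the GF WT mice. Border-associated macrophage markers moved with both without overlap, at 10.7 to 43.9 CPM in GF WT, 3.48 to 8.15 CPM in SPF WT and 3.80 to 5.90 CPM in ABX WT mice, from a sort of CD45low cells, and their part was not tested. In both, the fold change across genes followed GC content (Spearman's rho 0.31 and -0.43), and with GC offsets none of the 4 and none of the 5 was called. The medians over the 77 genes were then 0.17 and -0.07, no smaller in size than without (0.15 and -0.06), while the called genes had smaller values, such as 0.52 for Mrpl12 in the first comparison and -0.13 for Mrpl38 in the second. The calls also hung on single mice, with 0 called in the first comparison without mouse WT_SPF_912 or WT_SPF_925 or mouse WT_GF_229, WT_GF_230 or WT_GF_231, 1 without mouse WT_SPF_926, WT_SPF_928 or WT_SPF_936 and 2 without mouse FAD_SPF_1148. In the second 0, 2 and 1 were called without mice WT_GF_229, WT_GF_230 and WT_GF_231, and 3, 2 and 1 without mice WT_ABX_909, WT_ABX_910 and WT_ABX_911. In ABX WT against SPF WT microglia none of the 77 genes passed, and none of all genes did (0%; edgeR and DESeq2 alike for the 77). There the median was 0.07 and 2 of the 77 had an unadjusted p under 0.05.

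Whether the genotype effect differed with housing was tested as an interaction. For GF minus SPF none of the 77 genes passed (0% of all genes; edgeR, and 0 of the 77 by DESeq2), although 15 had an unadjusted p under 0.05, 69 were positive and the median was 0.30 (0.01 over all genes). Mrps21 had the lowest p of them (0.89 ± 0.28, adjusted p = 0.434). For ABX minus GF none of the 77 passed either, where 1.76% of all genes did. The median was -0.22, 18 had an unadjusted p under 0.05, and Mrpl13 was nearest to the threshold (-0.76 ± 0.21, adjusted p = 0.0563), while DESeq2 called 4 and the fits without mouse FAD_ABX_1482 and mouse FAD_GF_201 called 3 and 2. For ABX minus SPF the median was 0.05 and none passed by edgeR or DESeq2, with 4 at an unadjusted p under 0.05, as none of all genes did (0%; edgeR). By edgeR on all mice a difference of the genotype effect between housings was thus not shown for any single one of the 77 genes. In ABX mice the genotype goes with the format of the description numbers, and in GF mice it does not. What the format stands for thus cannot be told apart from the ABX minus GF interaction. By the F test over the 6 groups 33 of the 77 genes differed between groups, against 33.2% of all genes, with Mrpl54 (adjusted p = 7.38e-07), Mrpl12 (6.64e-06) and Mrpl28 (7.25e-06) lowest in the large subunit and Mrps21 (0.000202), Mrps15 (0.000513) and Mrps34 (0.000967) in the small.

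**Figure D5:**
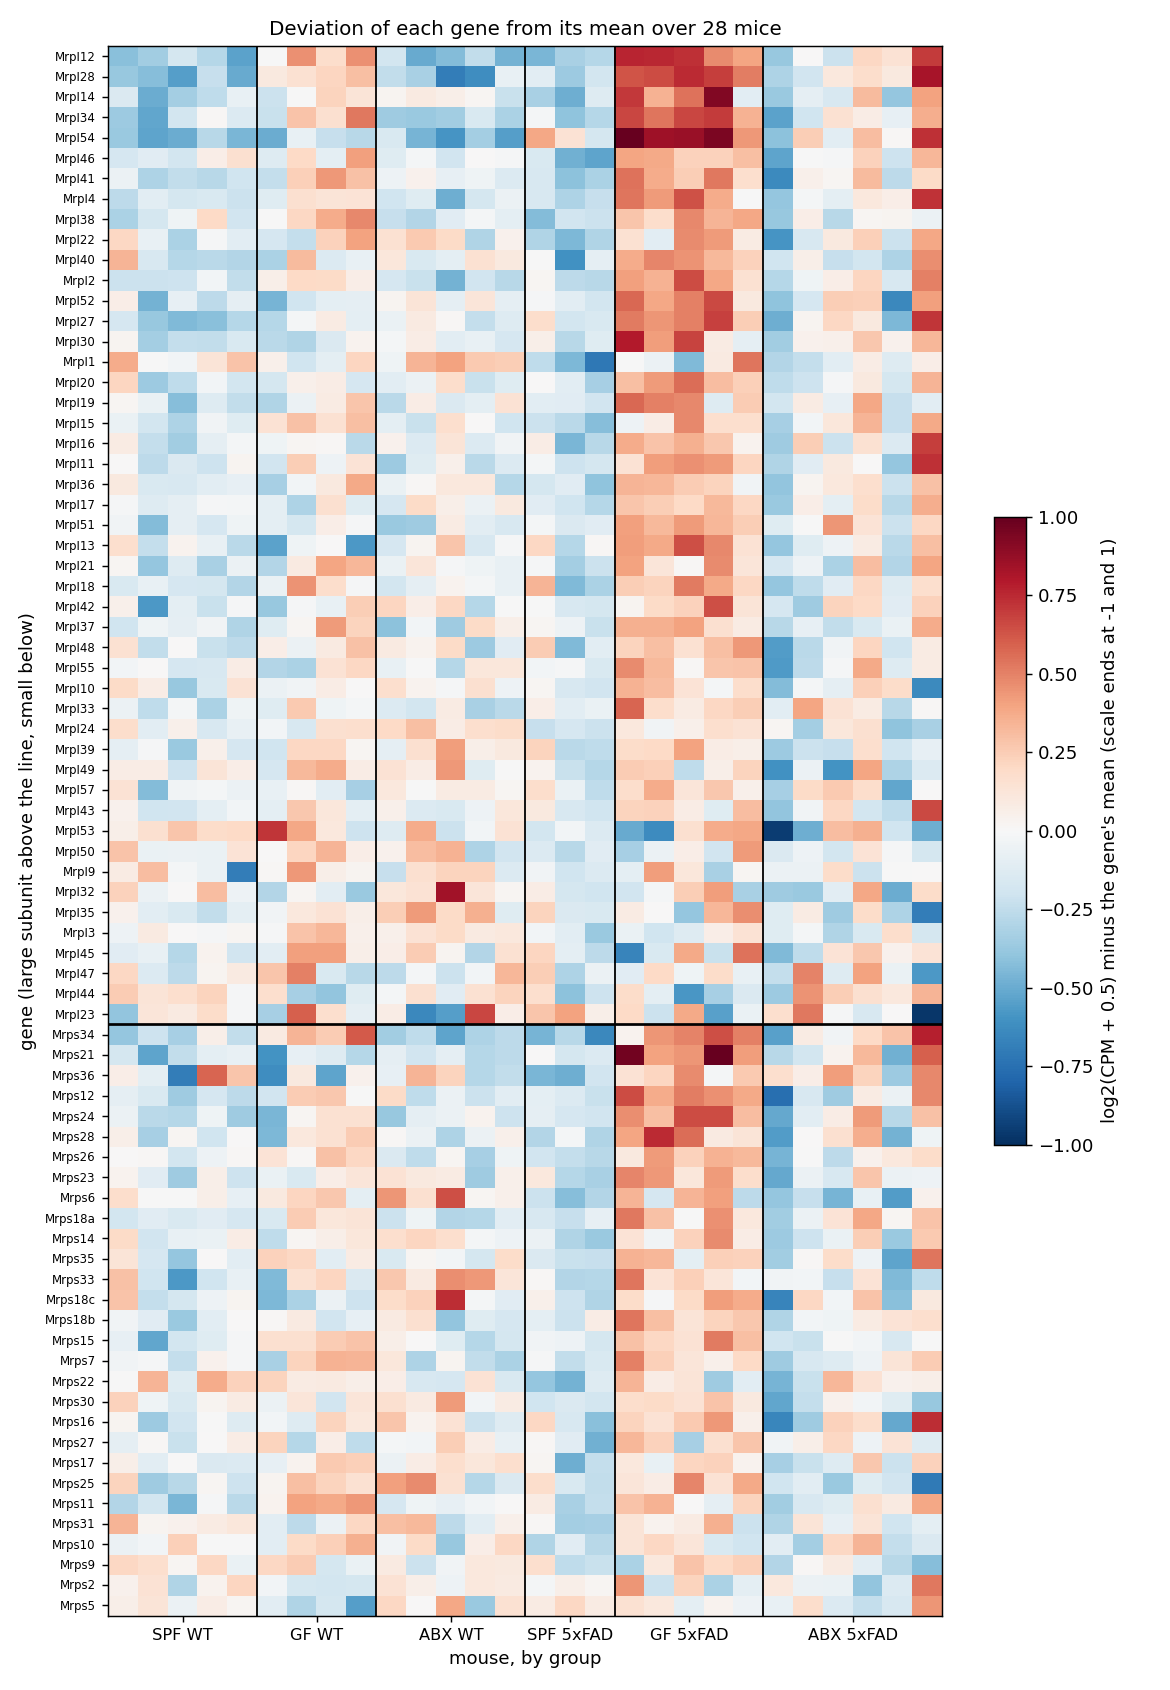
Log2(CPM + 0.5) of each of the 77 genes in each mouse, as the deviation from the gene's mean over the 28 mice, with genes ordered within each subunit by their fold change in GF 5xFAD against SPF 5xFAD. The 5 columns of GF 5xFAD mice are the reddest in both blocks, and the first and last columns of the ABX 5xFAD mice (mice FAD_ABX_1151 and FAD_ABX_1482) lie at opposite ends.

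The rest of the machinery of mitochondrial translation was read in the same way, first in GF 5xFAD against SPF 5xFAD. Of 5 mitochondrial ribosomal proteins whose genes have other names, 3 rose: Chchd1 (0.78 ± 0.18, adjusted p = 0.00579), Aurkaip1 (0.74 ± 0.15, adjusted p = 0.00274) and Gadd45gip1 (0.67 ± 0.13, adjusted p = 0.00269), the last sharing 42.0% of its exon bases with other genes of the annotation. The same 3 fell in ABX 5xFAD against GF 5xFAD. Of 15 translation factors 1 rose, Tsfm, the exchange factor of the elongation factor Tu (0.88 ± 0.20, adjusted p = 0.00477), and 1 fell, Gfm2, a factor of ribosome recycling (-0.40 ± 0.07, adjusted p = 0.00166). Gfm2 stood at 352 ± 17.6 CPM (n = 5) in GF 5xFAD and at 465 ± 28.5 CPM (n = 3) in SPF 5xFAD mice, far above the ribosomal proteins, and part of its exon bases is shared with other genes of the annotation, so that its reads are uncertain. Of 22 assembly factors 2 rose, Mrm2, a methyltransferase of the ribosomal RNA (0.72 ± 0.23, adjusted p = 0.0384), and Rbfa, a maturation factor of the small subunit (0.56 ± 0.13, adjusted p = 0.00738). Of 17 mitochondrial aminoacyl-tRNA synthetases 1, Tars2, rose (0.48 ± 0.13, adjusted p = 0.0127), and of 9 genes of mitochondrial transcription and DNA none passed (1 at an unadjusted p under 0.05; edgeR). The medians of the last 4 lists lay between 0.12 and 0.16, against 0.43 for the 77 genes, and their calls lay near the 6.97% of all genes called higher.

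As counted here, the messages that this ribosome translates followed another order of groups. Of the 13 protein genes of the mitochondrial genome 7 had enough counts to be tested. The other 6, mt-Co2 among them, were listed at or near 0 and are not read as absent. All genes of the mitochondrial genome together made up 0.103 to 0.425% of the counts in a library. Why the 6 had so few reads was not tested. Reads of the 7 and of the ribosomal RNAs may be incomplete as well, so their levels are uncertain. Between GF 5xFAD and SPF 5xFAD mice all 7 were lower by value (median -0.43) and none passed (2 at an unadjusted p under 0.05; edgeR), while in GF 5xFAD against GF WT all 7 rose (median 0.96; mt-Co1, a catalytic subunit of cytochrome oxidase, 0.96 ± 0.22, adjusted p = 0.00265). Both mitochondrial ribosomal RNAs rose there as well, mt-Rnr1 by 1.48 ± 0.29 and mt-Rnr2 by 1.42 ± 0.28 on the log2 scale (adjusted p = 0.000526 and 0.000429).

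The GF WT mice were the lowest group by mean for mt-Co1 and both ribosomal RNAs. mt-Co1 stood at 152 ± 17.7 CPM (n = 4) in GF WT, 212 ± 46.6 CPM (n = 5) in SPF WT, 263 ± 48.7 CPM (n = 5) in ABX WT, 297 ± 54.8 CPM (n = 5) in GF 5xFAD, 291 ± 96.7 CPM (n = 6) in ABX 5xFAD and 430 ± 137 CPM (n = 3) in SPF 5xFAD mice. mt-Rnr2 stood at 200 ± 14.5, 466 ± 130, 574 ± 216, 536 ± 140, 385 ± 129 and 696 ± 253 CPM in the same order of groups, and mt-Rnr1 at 10.5 ± 0.78, 21.4 ± 4.59, 26.6 ± 8.88, 29.5 ± 9.66, 23.8 ± 9.29 and 40.8 ± 13.0 CPM. SPF 5xFAD mice had the highest mean of all 3, but for mt-Rnr2 their range (525 to 987 CPM) overlapped that of each group other than GF WT. Against the same GF WT mice, all 7 messages (median 0.94) and both ribosomal RNAs (mt-Rnr2 1.52 ± 0.28, adjusted p = 0.00257; mt-Rnr1 1.33 ± 0.29, adjusted p = 0.00704) also rose in ABX WT mice, where 2.4% of all genes were called higher. In GF WT against SPF WT mice mt-Nd2, a subunit of complex I, and mt-Rnr2 fell by 0.93 and 1.22 on the log2 scale (adjusted p = 0.0434 and 0.0198; 0.752% of all genes lower).

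With the genotype 5 of the 7 messages rose in SPF mice too (median of the 7, 0.73; mt-Co1 1.02 ± 0.23, adjusted p = 0.00557), where 3.73% of all genes were called higher. In ABX 5xFAD against ABX WT mice none of the 7 passed (1 at an unadjusted p under 0.05; edgeR) and the median was -0.07. The genotype effect differed between ABX and GF mice for 5 of the 7 messages and both ribosomal RNAs, all with negative values in ABX minus GF (mt-Rnr2 -1.996 ± 0.363, adjusted p = 0.00685; mt-Nd2 -1.47 ± 0.32, adjusted p = 0.0206), where 1.76% of all genes passed. In SPF and ABX mice the genotype goes with the format of the description numbers, and in GF mice it does not. The difference between ABX and GF mice therefore cannot be told apart from the format.

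Complex I of the respiratory chain and the cytosolic ribosome, other large assemblies of many small proteins, were set beside these genes. Of 37 nuclear subunits of complex I, 22 rose in GF 5xFAD against SPF 5xFAD (median 0.52) and 27 in GF 5xFAD against GF WT (median 0.58). Of 81 cytosolic ribosomal proteins, many of which share reads with processed copies elsewhere in the genome, 18 rose in the first comparison (median 0.47) and 49 in the second (median 0.79). Beside these the 77 mitochondrial ribosomal proteins had 28 and 9 calls and medians of 0.43 and 0.18. When ABX 5xFAD were set against GF 5xFAD mice, 28 complex I and 30 cytosolic ribosomal genes fell (medians -0.46 and -0.52).

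Of the regulators known to act on promoters of this kind, 8 were tested. Between GF 5xFAD and SPF 5xFAD mice Myc, a growth-promoting factor, rose (0.67 ± 0.19, adjusted p = 0.0197), Gabpa fell (-0.63 ± 0.19, adjusted p = 0.0259) and Yy1 fell (-0.55 ± 0.17, adjusted p = 0.0308). Nrf1 (-0.17, adjusted p = 0.56), Gabpb1 (0.01), Esrra (0.36, adjusted p = 0.144), Ppargc1b (0.85, adjusted p = 0.214) and Pprc1 (0.12) did not pass, and Ppargc1a was too low to test. Myc stood at 86.4 ± 23.1 CPM (n = 5) in GF 5xFAD, 71.8 ± 16.5 (n = 6) in ABX 5xFAD, 54.2 ± 8.76 (n = 3) in SPF 5xFAD and 36.7 ± 6.76 (n = 4) in GF WT mice, and it rose in GF 5xFAD against GF WT (1.23 ± 0.18, adjusted p = 7.87e-06). Myc also rose in ABX 5xFAD against ABX WT (0.52 ± 0.16, adjusted p = 0.0238), where the median of the mitochondrial ribosomal genes was -0.0047. In that comparison Yy1 fell (-0.54 ± 0.14, adjusted p = 0.0101) and Pprc1 rose (0.43 ± 0.14, adjusted p = 0.0301). Pprc1 fell in ABX WT against GF WT (-0.70 ± 0.15, adjusted p = 0.00582). Esrra, which works with the PGC-1 coactivators, fell in ABX 5xFAD against GF 5xFAD (-0.46 ± 0.13, adjusted p = 0.0226). Among the genes with a promoter window, at least 1 of the 3 motifs was found in 11 of the 22 that rose in GF 5xFAD against SPF 5xFAD and in 24 of the 46 that were not called.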

How the data were processed

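Microglia of 28 mice were sequenced as 1 library each from a SMARTer v4 and Nextera XT kit, which does not mark strand. The deposited values were raw counts per gene, which the authors made with STAR 2.7.2 and featureCounts 1.6.2 on Gencode M21 (GRCm38 by the methods, while the submitters' processing notes name GRCh38.p12), without normalization. Groups were taken from the titles. The table also held 92 spike-in entries with at most 12 reads in a library, which were left out.

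From the counts, edgeR 4.0.16 (R 4.3.3) was run on all genes and 28 libraries with TMM factors, filterByExpr (minimum count 10, minimum total 15), 1 mean per group and the quasi-likelihood test, with Benjamini-Hochberg adjustment over all genes and a threshold of 0.05. CPM were scaled by TMM, and log2 CPM used a prior count of 2. Depth limits the precision of the genes near 1 CPM. The code was tested on simulated counts. Alternatives were DESeq2 1.42.0, limma 3.58.1 with voomWithQualityWeights as in the study, other scalings and filters, offsets for gene length or GC content, each comparison alone, and leaving out mice. Offsets for both length and GC content were added after the data had been seen. The genes, lists and tests were chosen with earlier results of these data known. Genes were named by size of change among those called (up to 5 in each direction, comparison and subunit), by level, spread and F test (3 each), by role, and as exceptions. Overlaps of exons were counted without regard to strand.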

Additional observations from a re-analysis of the deposited data

Results flagged for a closer look

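In 60 sets of values from 1 group of 4 to 6 mice, the lowest or highest mouse was compared with the rest, and in 4 it stood apart by Dixon's 95% limit, where chance flags about 1 in 20. Mrpl28 was at 54.5 CPM in mouse FAD_ABX_1482, against 24.5 to 34.6 CPM in the other 5 mice of the group. The mean log2 CPM of the small subunit was 4.27 in mouse WT_GF_199, against 4.46 to 4.47 in the other 3. Mrpl14 was at 12.9 CPM in mouse WT_ABX_932 (others 15.4 to 16.2 CPM) and Mrpl34 at 20.5 CPM in mouse WT_ABX_923 (others 17.6 to 18.3 CPM).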

How the results depend on the processing

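None of the called genes changed direction under any alternative. Medians over the 77 genes near 0 did: that of ABX 5xFAD against ABX WT kept its sign in 31 of 39 alternatives (-0.08 to 0.05), that of the ABX minus SPF interaction in 36 (lowest -0.0077) and that of SPF 5xFAD against SPF WT in 38 (highest 0.0051), while the other 9 medians kept theirs in all 39. The counts of the 77 genes called moved as follows. In GF 5xFAD against SPF 5xFAD (28) library size alone gave 15, no low-count filter 14 and voomWithQualityWeights 52, and leaving out single mice 5 to 34. In GF 5xFAD against GF WT (9) no filter gave 5 and leaving out mice FAD_ABX_1151 and FAD_ABX_1482 gave 15, with 5 to 13 over single mice. In ABX 5xFAD against GF 5xFAD (18) library size alone gave 8, no filter 7, both offsets 11 and the groups alone 0, with 8 to 29 over single mice. In ABX 5xFAD against ABX WT (7) library size alone gave 11, no filter 4, GC offsets, both offsets and voom 3 each and the groups alone 0, with 2 to 10 over single mice. In SPF 5xFAD against SPF WT (1) no filter gave 0, voom 7, and length, GC and both offsets, DESeq2, the groups alone and leaving out both ABX 5xFAD mice 2 each, with 0 to 2 over single mice. In GF WT against SPF WT (4) no filter gave 2, GC and both offsets 0 and voom 10, with 0 to 5 over single mice. In ABX WT against GF WT (5) no filter gave 2, GC offsets 1, both offsets 0 and voom 12, with 0 to 7 over single mice. For the ABX minus GF interaction (0) a count of 10 in every library, voom and leaving out both ABX 5xFAD mice gave 1 each and DESeq2 4, with 0 to 3 over single mice. For the F test (33) no filter gave 20 and voom 56, with 25 to 36 over single mice. The cause was not tested. ABX against SPF, in WT and in 5xFAD mice, and the other interactions stayed at 0 in every fit. No paired analysis was possible because mouse numbers were not shared between groups. With 3 SPF 5xFAD mice the comparisons that use them have the least precision.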
